A study of Acromyrmex echinatior with 18 samples.

Results

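RNA editing in the heads of reproductive and non-reproductive females was compared in the leaf-cutting ant Acromyrmex echinatior: gynes, the winged females that can found colonies as queens, against large workers and small workers, which forage, tend the fungus garden and care for the brood. The comparison used 9 of the 18 sequenced samples, 1 RNA library for each of the 3 castes in each of 3 laboratory-kept colonies collected in Panama (Ae322, Ae356 and Ae363, here A, B and C). Heads were pooled before extraction, 50 per library for gynes and large workers and 200 for small workers, so no library describes a single ant, and whole heads mix brain with gland, muscle and fat. DNA of the matching bodies was sequenced too, and the authors list its reference reads at each site. Sites were kept where all 9 RNA libraries had at least 10 reads, which left 5720 of the 17229 sites in the authors' table, on 300 scaffolds of assembly Aech_2.0. Of these, 2718 lay in 701 annotated genes or overlapping gene pairs. The age and mating status of the ants are not given in the labels.

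In animals the commonest editing converts adenosine into inosine in double-stranded stretches of RNA. The enzymes that do this are the ADAR proteins, and sequencing reads inosine as G, so the change appears as A-to-G on the transcribed strand. In insects, edited stretches often lie in inverted repeats and transposable elements within introns and untranslated regions, where many adenosines of one hairpin are edited partially. Coding sites are fewer and are best known from ion channels and synaptic proteins of the fly nervous system. The editing level of a site is the percentage of its RNA reads that carry the edited base.

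Total RNA reads over all 17229 sites ran from 479998 (large workers, colony B) to 1037408 (small workers, colony B). Small worker libraries were the 3 deepest. Large worker libraries of colonies B and C were shallower than all 3 gyne libraries. The median tested site had 34 to 85 reads per library. In each of the 9 DNA libraries every site of the table had at least 10 reference reads. For DNA the authors list reference reads only, so the absence of edited DNA reads was fixed by the listing and is no check. Libraries of the same caste were not duplicates, since their counts varied beyond sampling noise, and each was counted once. Reads carry no molecular identifiers, so depth bounds counting error only.

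Editing was higher in both worker castes than in gynes in every colony. Over the tested sites, gynes of colonies A, B and C had mean levels of 12.03%, 11.7% and 11.6%, large workers 14.3%, 13.2% and 13.5% and small workers 15.7%, 15.6% and 15.96%. The 3 gyne libraries were the 3 lowest of the 9 and did not overlap with the workers. Workers averaged 14.7% against 11.8% ± 0.232 (SD, n = 3) in gynes, and the excess within a colony was 2.97, 2.75 and 3.10 percentage points. An exact two-sided permutation test of the 6 worker against the 3 gyne libraries gave p = 0.0238, where 0.0119 is the smallest p possible; within colonies, the exact sign-flip test gave p = 0.25, the smallest that 3 pairs allow.

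Workers averaged higher in each class of annotated sequence. In transposable elements outside genes, gynes had 14.6%, 14.4% and 14.1%, large workers 17.2%, 16.6% and 16.3% and small workers 18.9%, 18.7% and 19.5%, a mean excess of 3.49 points (exact permutation p = 0.0119, n = 3 and 6). The 74 sites in 5' UTRs had an excess of 3.61 points, with 9.88%, 11.7% and 11.1% in gynes and 13.3% to 16.2% in the 6 worker libraries. Sites in 3' UTRs lay 3.24 points higher in workers, intronic sites 3.19 and sites with no annotation 2.59. Coding sites had a low level and a small excess of 0.887 points, from 4.89% ± 0.595 in gynes to 5.78% in workers. Most tested coding sites were of kinds other than A-to-G. At the 56 coding A-to-G sites the excess was 2.23 points (exact permutation p = 0.143, n = 3 and 6).

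The excess was 3.26 points at A-to-G sites and 0.292 at the other kinds, where levels were low; the difference between the kinds was not tested. The 5100 A-to-G sites averaged 12.9% ± 0.234 in gynes and 16.1% in workers (exact permutation p = 0.0238, n = 3 and 6), whereas the 620 sites of other kinds averaged 2.76% ± 0.227 and 3.05% (exact permutation p = 0.107). The excess in points grew with the level of a site. Sites with a mean level under 5% differed by 0.954 points, those from 5% to 20% by 2.61, those from 20% to 50% by 6.53 and those above 50% by 8.92. As a percentage of the gyne level, the order was the opposite, from 42.9% at the lowest sites to 14.4% at the highest. In all, 17 such subsets were tested, and with Benjamini-Hochberg adjustment over them the permutation p was 0.0337 for A-to-G sites and 0.130 for the other kinds.

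**Figure D1:**
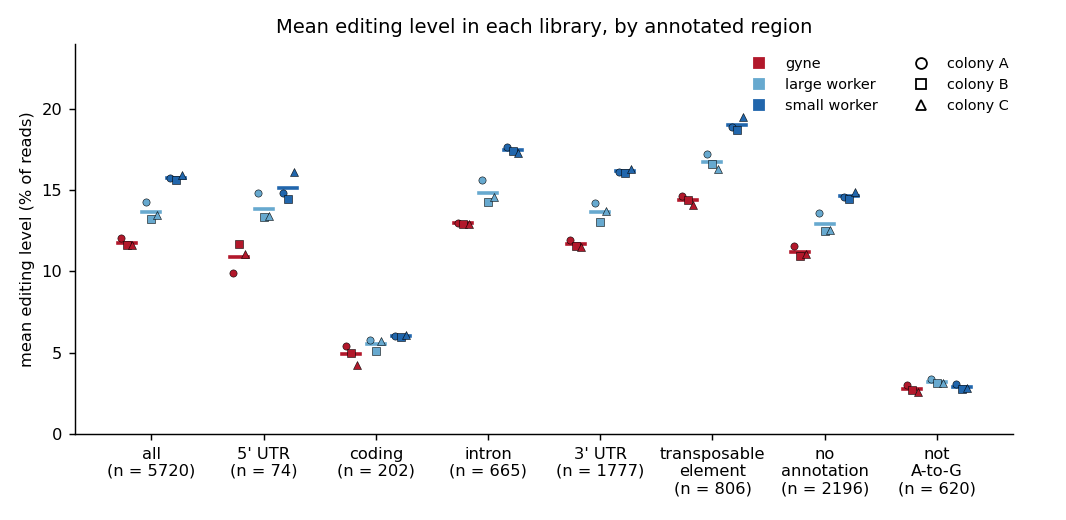
Mean editing level in percent of reads (vertical axis) in each RNA library, for all tested sites, for 6 classes of annotated sequence and for sites that are not A-to-G; symbols give the colony, colours the caste, and bars the mean of 3 libraries. Gynes of the 3 colonies lie below both worker castes in the left column, at 12.03%, 11.7% and 11.6%, while the castes are close together at sites that are not A-to-G.

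The mean of workers was higher than that of gynes at 4265 sites (74.6%) and lower at 1455 (25.4%). Both worker castes lay above the gyne of their colony in all 3 colonies at 642 sites (11.2% of those tested) and below it at 79 (1.38%). These are called here the concordantly higher and the concordantly lower sites. They were picked by their levels, so their number and size are a description and not a test. The concordantly higher sites had median levels of 7.48% (gynes), 15.7% (large workers) and 18.2% (small workers). The share of A-to-G was 98.6% there and 89.2% over all tested sites, and 317 lay in 152 genes. Small workers exceeded large workers at 63.9% of them, close to the 63.8% of all tested sites. At the concordantly lower sites, the median was 14.5% in gynes and 6.64% in workers; 39 lay in 34 genes and 91.1% were A-to-G. A further 1055 sites missed the higher class by 1 of the 6 comparisons, with a median excess of 5.43 points, and 210 missed the lower class by 1, with a median difference of -3.54 points.

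**Figure D2:**
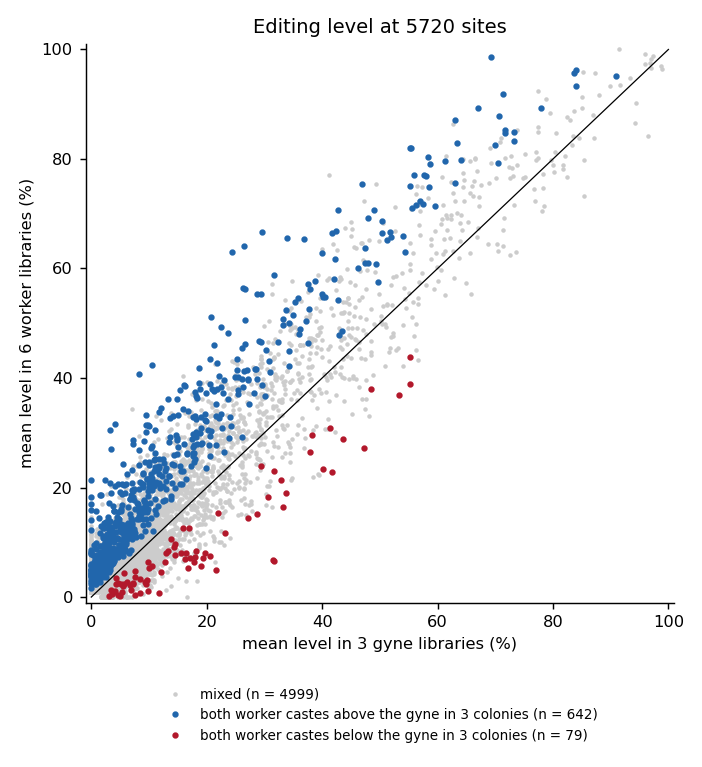
Mean editing level of each of the 5720 tested sites in the 3 gyne libraries (horizontal, %) and the 6 worker libraries (vertical, %), with the line of equal levels. Sites where both worker castes lay above the gyne in 3 colonies (642, blue) reach far above the line and those below it in 3 colonies (79, red) are fewer; mixed sites are grey.

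When each level was divided by the mean level of its library, 281 sites were concordantly higher and 290 concordantly lower. This scaling takes out the average excess of workers, so the like size of these classes is no finding. Concordantly higher sites often lay next to each other. Within 100 bases of them, 21.04% of the tested neighbours were concordantly higher too, against 11.2% of all tested sites, and 355 of the 642 had such a neighbour. For concordantly lower sites these values were 5.12% and 13 of 79. Neighbouring sites are covered by the same reads and are not independent.

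To read the classes in libraries that had not chosen them, sites were picked as higher or lower in 2 colonies and then read in the third. Of sites picked as higher, both worker castes lay above the gyne in the held-out colony at 57.7%, 50.4% and 53.7% for colonies A, B and C, against 47.4%, 38.3% and 40.9% of all tested sites. Their mean excess there was 4.63, 4.40 and 4.99 points, larger than the 2.97, 2.75 and 3.10 of all sites and smaller than in the colonies that had picked them. Of sites picked as lower, both worker castes lay below the gyne in the held-out colony at 29.8%, 27.6% and 30.7%, against 20.3%, 19.7% and 18.8% of all sites. Their mean difference there was 1.22, 1.08 and -0.267 points, although it had averaged -8.14, -7.90 and -7.36 in the colonies that picked them. Sites picked as lower thus averaged above the gynes in colonies A and B when these had no part in the choice, and close to them in colony C. With levels taken over the library mean, sites picked as relatively lower had both worker castes relatively lower in the held-out colony at 47.5%, 43.3% and 44.01%, against 31.9%, 29.8% and 29.98% of all sites. Sites picked as relatively higher had both castes relatively higher there at 42.9%, 35.8% and 39.9%, against 37.2%, 29.3% and 31.5%. As a percentage of the gyne level, the excess was 42.9% at sites under 5%, 14.4% above 50% and 25.0% over all sites. Sites above 50% thus averaged relatively lower on this scale, and the part of the level in these shares was not tested.

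The level difference also varied with the change in the number of reads over a site. Each site's reads were scaled to the total over all tested sites of its library, as RPM, and the worker mean was divided by the gyne mean. In the 1430 sites with the lowest ratio (median 0.690), the level was 10.9% in gynes and 14.6% in workers, and 15.2% of sites were concordantly higher and 0.979% lower. In the 1430 with the highest ratio (median 1.72), these values were 13.1%, 14.3%, 6.57% and 2.87%. Sites with relatively fewer reads in workers had an excess of 3.72 points and sites with relatively more reads 1.29. Across all 5720 sites, which share libraries and often reads, Spearman's rho between the 2 measures was -0.165. In pooled heads, a change in transcript number per cell and a change in the number of cells of a type cannot be told apart, and the part of read share in the level differences was not tested.

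**Figure D3:**
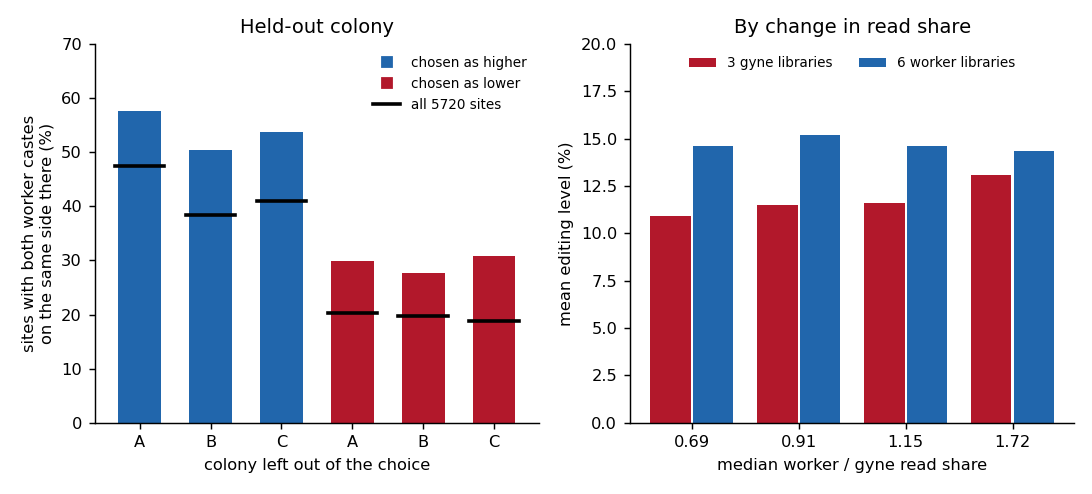
Left, percentage of sites chosen in 2 colonies as higher (blue) or lower (red) whose worker castes both lay on that side in the third colony, with the value of all 5720 sites as a black line. Right, mean editing level in gynes (red) and workers (blue) in 4 equal groups of sites ordered by the worker to gyne ratio of read share; the gap narrows from 3.72 points on the left to 1.29 on the right.

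A quasi-binomial model of edited and unedited reads with 1 dispersion shared by all sites called 236 sites (4.13%) at a Benjamini-Hochberg adjusted p under 0.05, 226 of them higher in workers (3.95%) and 10 lower (0.175%). With the logit of each library's mean level as an offset, the split was 21 higher and 9 lower. That scale differs from the division by the library mean used above for concordant sites. Of the 236 called sites 169 were concordantly higher and 4 concordantly lower. These calls rest on the shared dispersion. With each site's own dispersion where it was larger, 90 sites were called (1.57%), 87 higher (1.52%) and 3 lower (0.0524%), and with the colony as a block 0 were called, with 717 at an unadjusted p under 0.05; limma on transformed levels also called 0, with 789 at an unadjusted p under 0.05. No site named below passed the threshold with the colony block: over the 35 named sites called higher, the blocked adjusted p ran from 0.354 to 0.441 and the unadjusted one from 0.000260 to 0.0780. Leaving out any 1 of the 9 libraries left between 1 and 53 calls. In these fits the moderated dispersion was no longer shared by all sites. The loss of a library and the change of dispersion cannot be told apart there. The lowest, 1 call, came without large workers of colony A and without small workers of colony A, and in both it was the scaffold 21 site described below. Against gynes, the same model called 27 of the 5720 sites for large workers alone and 471 for small workers alone. At the 226 sites called higher, small workers averaged above large workers at 82.3%, against 63.8% of all tested sites. In the 12 genes described next, small workers alone were called at each site. Large workers alone were called only at the CG11665 site (adjusted p = 0.00104, same model). Small worker libraries were the deepest, and the part of depth was not tested.

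The 12 genes with the largest called and concordant increases held 8 sites in 3' UTRs and 4 in introns, none in coding sequence, and all were A-to-G. Inside transposable elements lay 5 of them, in CG6197, sqd, CG15738, Sac1 and Aech_16122. Of all tested sites 26.7% lay inside such elements. The difference between the groups in these genes was 21.6 to 37.6 points. They are ordered here by the known role of the gene, which is no test of a theme. In CG6197, the counterpart of the splicing factor SYF1, an intronic site inside a transposable element (scaffold 678, position 65768, plus strand) read 40%, 17.6% and 21.7% in gynes of colonies A, B and C, 42.1%, 62.5% and 100% in large workers and 70.8%, 71.7% and 37.5% in small workers. Small workers of colony C lay within the gyne range, and the spread between libraries was wide (adjusted p = 0.0186 with the shared dispersion and 0.416 with its own). At a 3' UTR site of sqd, which encodes the RNA-binding protein squid, an hnRNP that in the fly localises mRNAs, gynes read 29.6%, 27.8% and 44.3% (scaffold 99, position 688856, minus strand). Large workers read 57.8%, 50% and 47.6% and small workers 86.2%, 92.3% and 60%, so that the castes formed 3 steps without overlap (adjusted p = 0.00119 for gynes against workers, quasi-binomial test; 0.304 with its own dispersion). Small and large workers also differed there, which was called at 50 sites in all (0.874%; adjusted p = 0.00998 here). Of the 9 tested sites of sqd, this 1 was concordantly higher. The sqd gene mean overlapped between gynes (9.16% to 12.9%) and large workers (10.7% to 17.0%), with 19.5% to 28.7% in small workers (limma, adjusted p = 0.210). In Nup98-96, the precursor of nuclear pore proteins, a 3' UTR site (scaffold 448, position 70357, plus strand) rose from 12.8% to 20.4% in gynes to 40.8% to 45.8% in small workers, with 41.8%, 19.5% and 38.5% in large workers (adjusted p = 0.000481, 0.00119 with its own dispersion). Large workers of colony B lay within the gyne range there.

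Sites in genes of protein folding, turnover and translation are given next. In Droj2, a DnaJ co-chaperone of heat shock proteins, a 3' UTR site (scaffold 433, position 807657, minus strand) read 61.5%, 45.5% and 59.4% in gynes, 80%, 90.9% and 73.8% in large workers and 84.7%, 82.9% and 80% in small workers. Each worker library exceeded each gyne library (adjusted p = 0.00805, 0.0163 with its own dispersion). CG3356, the counterpart of ubiquitin ligase E3C, had 53.3%, 42.4% and 51.2% in gynes against 55.6% to 78.7% in the 6 worker libraries (3' UTR, scaffold 546, position 109321, plus strand; adjusted p = 0.0333, 0.0616 with its own dispersion). HBS1, which releases stalled ribosomes, went from 4.17%, 0% and 8.33% in gynes to 32.1%, 41.7% and 28% in large workers and 23.3%, 28.2% and 36% in small workers, at a 3' UTR site on the short scaffold C2142833 (position 2175, minus strand). This was an increase from 4.17% ± 4.17 to 31.6% (adjusted p = 0.00739, 0.0156 with its own dispersion), on 12 to 39 reads per library.

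The next 4 sites lie in genes of transport, membrane lipids and mitochondria. CG11665, a monocarboxylate transporter family member, had the smallest adjusted p of the 12. Its 3' UTR site (scaffold 544, position 82764, minus strand) read 12.7%, 12.2% and 6.50% in gynes, 41.7%, 21.1% and 51.7% in large workers and 50.98%, 42.1% and 46.9% in small workers, without overlap between gynes and workers. The mean rose from 10.5% ± 3.46 in gynes to 38.1% ± 15.6 in large and 46.7% ± 4.44 in small workers (SD, n = 3 each; adjusted p = 1.04e-08, and 4.81e-08 with its own dispersion). Reads over the gene were fewer in workers. Its 9 tested sites averaged per site 185, 174 and 291 RPM in the gyne libraries and 45.1 to 100.1 in the worker libraries. CG14621, of the solute carrier 35 family, read 8%, 35.7% and 18.8% in gynes and 40% to 59.5% in workers (intron, scaffold 463, position 7001, minus strand; adjusted p = 0.0468, 0.0817 with its own dispersion). CG15738, a mitochondrial protein whose human counterpart helps to assemble respiratory complex I, read 39.2%, 24.4% and 25% in gynes, 64.9%, 71.4% and 48% in large workers and 86.4%, 60.5% and 69.2% in small workers (3' UTR inside a transposable element, scaffold 88, position 2527276, plus strand; adjusted p = 0.000441, 0.154 with its own dispersion). Sac1, a phosphoinositide phosphatase of the endoplasmic reticulum and Golgi, read 15.8%, 8.82% and 0% in gynes and 30.4% to 56.2% in workers (3' UTR, scaffold 50, position 2773774, plus strand; adjusted p = 0.0205, 0.0378 with its own dispersion).

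The remaining genes of the 12 were of unknown function. In Aech_16122, an intronic site (scaffold 212, position 73196, plus strand) showed little spread, with 41.2%, 45.6% and 41.7% in gynes, 70.5%, 61.1% and 59.4% in large workers and 80.4%, 72.5% and 80% in small workers (adjusted p = 0.00222, 0.00515 with its own dispersion). In Aech_05978, also intronic, gynes read 25%, 16.7% and 26% and workers 39.4% to 61.2% (scaffold 104, position 1254882, plus strand; adjusted p = 0.00162, 0.00389 with its own dispersion). In 10 of the 12 genes no worker library overlapped with a gyne library, as at 335 of all tested sites (5.86%) on the higher side, and 7 of the 12 sites passed with their own dispersion.

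**Figure D4:**
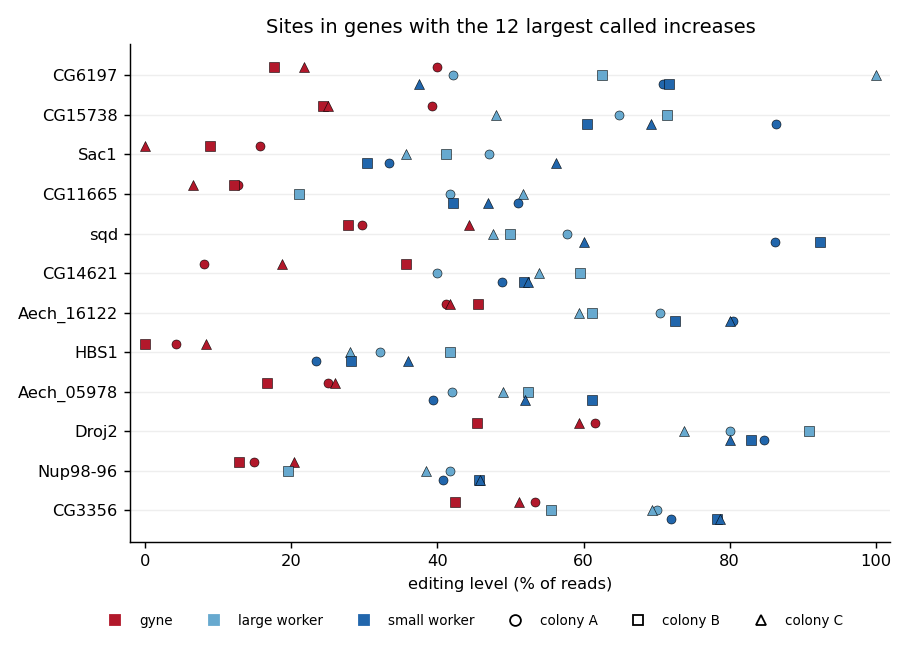
Editing level in percent of reads (horizontal axis) in each of the 9 libraries at the site with the largest called and concordant increase in each of 12 genes; colours give the caste and symbols the colony. Gyne values (red) lie to the left of worker values, without overlap in 10 of the 12 genes, and in sqd the small workers lie apart from the large workers.

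Some sites moved further than the general difference between the libraries. With the mean level of each library as an offset, 30 sites were called (0.524%), 21 relatively higher in workers (0.367%) and 9 relatively lower (0.157%); 0 were called with the colony as a block, with 458 at an unadjusted p under 0.05. Of the 21, 19 were concordantly higher, and all were A-to-G. Among these sites, which the test had picked, 16 did not overlap between gynes and workers, against 5.86% of all tested sites on the higher side. Small workers averaged above large workers at 19 of them (90.5%), against 63.8% of all tested sites. The strongest call lay outside annotated genes. On scaffold 21, at position 709160 (plus strand), gynes read 22.02%, 22.4% and 21.9%, large workers 43.8%, 36.8% and 35.5% and small workers 40.5%, 39.2% and 46.3%, on 363 to 941 reads per library (adjusted p = 3.31e-09 relative to the shift). The 3 gyne values lay within 1 point of each other and below each worker value. The adjacent base, 709159, read 31.7% to 33.03% in gynes and 38.6% to 54.6% in workers. In a transposable element on scaffold 50, at position 2798719 (plus strand), the level rose from 23.6% to 29.4% in gynes to 43.4% to 61.8% in workers (adjusted p = 8.35e-05 relative to the shift). A neighbour 6 bases away, at 2798713, rose from 36.5% to 48.4% to 62.5% to 70.4%. In another element (scaffold 5, position 53692, minus strand), gynes read 77.8%, 50% and 80% and 5 of the 6 worker libraries 100%, on 10 to 26 reads (adjusted p = 0.0477, and 0.0792 with its own dispersion). A site on scaffold 61 (position 190008, plus strand) had the largest difference of the 21, 38.6 points, from 14.3% to 38.3% in gynes to 45.3% to 67.7% in workers (adjusted p = 0.0477, and 0.525 with its own dispersion). On scaffold 614 (minus strand), 5 unannotated sites within 100 bases were called higher in workers (a call made at 3.95% of all tested sites), 3 of them relative to the shift (made at 0.367%), and 0 of the 5 with their own dispersion. The scaffold was chosen for having the most relative calls. The strongest, at position 300963, read 7.95%, 9.39% and 9.55% in gynes, 17.05%, 18.04% and 13.7% in large workers and 20.7%, 21.5% and 29.7% in small workers (adjusted p = 9.57e-05 relative to the shift, and 0.378 with its own dispersion).

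The 8 genes with a site in this relative class, all in 3' UTRs, included CG11665, CG15738 and Nup98-96 from the list above. The others were enzymes and a protein of unknown role. Aech_00204, a cytochrome P450 of family 4, went from 1.87%, 7.22% and 7.5% in gynes to 20.2%, 34.8% and 15.8% in large workers and 27.8%, 25% and 22.5% in small workers (scaffold 121, position 2639178, minus strand; adjusted p relative to the shift 0.0229). CG5515, an RWD domain protein, read 9.78%, 3.20% and 3.16% in gynes, 16.6%, 15.6% and 16.5% in large workers and 29.3%, 25.2% and 21.2% in small workers (scaffold 340, position 3063, minus strand; 0.00386). Arginine kinase, which buffers ATP in insect muscle and nerve, had low levels on deep coverage. Its gene Argk read 1.46%, 1.26% and 0.905% in gynes, 3.62%, 1.40% and 1.88% in large workers and 5.66%, 7.38% and 6.73% in small workers, on 1206 to 2321 reads (scaffold 7, position 4364760, plus strand). Small workers stood apart there, while large workers of colony B lay within the gyne range (adjusted p relative to the shift 4.14e-05, and 0.382 with its own dispersion). The mitochondrial peroxidase gene Prx5 rose in 3 separate steps, from 0.577% to 1.51% in gynes to 2.05% to 2.98% in large and 5.12% to 5.36% in small workers (scaffold 64, position 64988, minus strand; 0.0215). The succinyl-CoA ligase gene skap rose from 7.49% to 8.47% in gynes to 11.2% to 14.8% in large and 18.1% to 24.5% in small workers (scaffold 436, position 371401, plus strand; 0.0315, and 0.0525 with its own dispersion). The skap site lay inside a transposable element. With their own dispersion the relative calls of CG15738 (adjusted p = 0.476) and Nup98-96 (0.0858) were lost too. Over these 21 sites, the median worker to gyne ratio of read share was 0.641, against 1.02 over all tested sites. The 21 sites lay on 16 scaffolds, and neighbours among them share reads, so their ratios are not independent.

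At 26 sites (0.455% of those tested), no edited read was found in any gyne library while all 6 worker libraries had some; the reverse was found at 0 sites. These counts are not comparable, since a site is listed if the authors marked it in any library, all 26 were marked in worker libraries alone, and the reverse asks for 0 edited reads in 6 libraries, among them the 3 deepest. The median worker level of the 26 was 5.41%, and small workers exceeded large workers at 8 of them. In an intron of CG10527, whose ant protein is named for an alpha-2-macroglobulin domain, gynes had 0 edited of 68 reads, which allows a level of up to 4.41%, while workers read 9.38% to 39.1% (scaffold 99, position 1842990, minus strand; adjusted p = 0.0165). In the 3' UTR of CG5167, a saccharopine dehydrogenase, gynes had 0 edited of 166 reads, a limit of 1.81%, and workers read 5.66% to 17.6% (scaffold 274, position 574861, plus strand; adjusted p = 0.00774). A second site in the CG6197 intron (position 65751) had 0 edited of 60 gyne reads, a limit of 5%, and 4.76% to 33.3% in workers, with an adjusted p of 0.0585. In Dscam3, a homophilic adhesion protein of neurons, the gyne limit was 5.45% on 55 reads and workers read 3.49% to 15.4%, with an adjusted p of 0.305. At the CG10527 and CG5167 sites the gyne limit, taken over the 3 libraries together, lay below each worker value, and at the other 2 sites it lay within the worker range. The sites of CG10527, CG5167 and CG6197 lay inside transposable elements.

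Coding sequence held 7 of the concordantly higher sites, all A-to-G; these were singled out after their values were seen. They were 12.5% of the 56 tested coding A-to-G sites, close to the 12.4% of all tested A-to-G sites. In CG31365, a zinc finger protein, gynes read 70.97%, 56.2% and 56.6%, large workers 77.4%, 65.96% and 77.3% and small workers 84.6%, 83.7% and 89.1% (scaffold 18, position 339063; adjusted p = 0.000829, 0.173 with its own dispersion). In wah, a fly gene name given to a protein of unknown function, neighbouring positions 803485 and 803491 of scaffold 89 read 17.8% to 34.1% and 20% to 31.6% in gynes against 30.9% to 52.7% and 30.6% to 43.8% in workers. The first was called (adjusted p = 0.0130, 0.370 with its own dispersion) and the second was not (0.0867). CG32521 had no edited read in gynes, a limit of 1.36%, and 1.18% to 7.69% in workers (scaffold 39, position 1358021; adjusted p = 0.0455, 0.0812 with its own dispersion). The ribosomal protein gene RpL7 and the glucose transporter gene Glut1 each had a concordantly higher site that was not called, with 66% to 90.2% and 19.6% to 21.7% in gynes and 76.8% to 94.8% and 20.9% to 36.4% in workers (adjusted p = 0.188 and 0.589). The RpL7 site also lay inside a transposable element. The seventh site lay where CG15141 overlaps another gene and was not called either. Whether these changes alter the protein was not analysed here.

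Averaged over the tested sites of a gene, editing was concordantly higher in workers in 113 of 700 genes (16.1%) and concordantly lower in 11 (1.57%). limma's moderated test called 4 genes (0.571%), 3 higher (0.429%) and 1 lower (0.143%), each with an adjusted p of 0.0361; with the colony as a block 0 were called (104 at an unadjusted p under 0.05), and the 4 genes had an adjusted p of 0.137. Aech_16122 averaged 29.4%, 27.98% and 27.3% over its 3 sites in gynes and 38.3% to 51.2% in workers. CG11665 averaged 2.31%, 4.79% and 1.28% over 9 sites in gynes, 9.82% to 12.9% in large workers and 11.8% to 13.99% in small workers. Alas, which catalyses the rate-limiting step of haem synthesis, had 1 tested site in its 3' UTR (scaffold 358, position 94315, minus strand) that read 0.775%, 3.16% and 2.27% in gynes, 7.48%, 5.69% and 6.10% in large and 15.9%, 12.8% and 16.9% in small workers. None of these 3 genes overlapped between gynes and workers. The Alas site lay inside a transposable element. CG6432, a mitochondrial acyl-CoA synthetase, was the gene called lower, through 1 site that was G-to-A; its values are given with the lower sites. Taking only the 230 genes that had 3 or more tested sites, 88 were concordantly higher (38.3%) and 3 lower (1.3%), and 60 were called higher (26.1%) and 0 lower, and with A-to-G sites alone 32 of 434 genes were called (7.37%). Leaving out 1 library at a time gave 0 to 27 called genes, the 27 without large workers of colony B. Among the 60 were Hsc70-4, sqd, CG6688, Usp7, CG5167, Oatp26F, pUf68, Pep and Rdl, whereas Eip93F and Adar were not called there. That test had no colony block. Adjusted p values given for these genes in other paragraphs are those over all 700 genes, where none of them was called.

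The genes with the most concordantly higher sites carry runs of edited sites in 3' UTRs or introns; they were ranked by number, so genes with many tested sites lead, and over all tested sites 11.2% were concordantly higher and 4.13% called. Hsc70-4, the constitutive heat shock protein of the cytosol, had 20 of 58 tested sites concordantly higher (34.5%) and 0 lower, and 13 sites called, along its 3' UTR (scaffold 121, positions 1685552 to 1686837). Its gene mean was 11.1%, 11.9% and 11.6% in gynes, 13.9%, 13.6% and 14.05% in large workers and 16.9%, 15.3% and 16.7% in small workers, in steps without overlap (limma, adjusted p = 0.297 over all genes). Mapmodulin, of the ANP32 family of acidic nuclear phosphoproteins, had 9 of its 13 intronic sites concordantly higher, and the worker mean lay above the gyne mean at all 13 (scaffold 91, positions 267451 to 268774). The gene mean was 22.5%, 22.7% and 22.01% in gynes and 24.99% to 30.1% in workers. Mdh1, a malate dehydrogenase, had 12 of 81 sites concordantly higher (14.8%), close to the share of all sites, with a gene mean of 12.6% to 14.05% in gynes, 13.7% to 15.4% in large and 16.4% to 17.4% in small workers. TBPH, the counterpart of the RNA-binding protein TDP-43, had 7 of 38 (18.4%), with a gene mean of 23.6% to 26.5% in gynes and 28.2% to 31.8% in workers. CG6197 and CG14621 had 6 each, of 17 and 26 tested sites, and the mean of workers exceeded that of gynes at 17 and 25 of them. CG2818 and Eip93F also had 6, and at CG2818 the worker mean was the higher one at all 11 tested sites.

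Genes were grouped into 12 lists by words in their protein and ortholog names. Over all 700 genes, 75.9% had a higher mean level in workers, with a median difference of 1.34 points; 16.1% of these genes and 11.7% of their sites were concordantly higher. The lists overlap, and some names are those of a related gene. Of genes with 3 or more tested sites 38.3% were concordantly higher, so lists with more sites per gene are not directly comparable with the 16.1%. All 700 genes held 2697 sites, the 19 of ubiquitin and protein folding 141 and the 34 of mitochondria and energy metabolism 253. The list of ubiquitin and protein folding had 8 of 19 genes concordantly higher (42.1%) and 0 lower, with a median difference of 3.69 points, and 34 of its 141 sites were concordantly higher (24.1%). Hsc70-4 alone held 58 of the 141 sites and 20 of the 34. Besides Hsc70-4, Droj2 and CG3356, the concordantly higher genes of this list were the ubiquitin ligase genes CG6688 and CG15141, the deubiquitinase gene Usp7, the chaperone gene Hsp83 and the chaperonin subunit gene Cct5. CG6688 averaged 10.1%, 22.1% and 7.54% in gynes and 25.7% to 36.7% in workers over 4 sites in its 5' UTR (limma, adjusted p = 0.0860). Usp7 averaged 6.32% to 8.48% in gynes and 9.73% to 18.7% in workers (adjusted p = 0.109). In the list of mitochondria and energy metabolism, 12 of 34 genes were concordantly higher (35.3%) and 1 lower, and 1 gene was called in each direction, Alas and CG6432. CG5167 averaged 11.7% to 14.1% in gynes and 20.3% to 27.5% in workers over 13 sites (adjusted p = 0.0817). Transporters had 5 of 22 genes concordantly higher (22.7%) and 1 called, CG11665. Oatp26F, an organic anion transporter, averaged 9.69% to 15.7% in gynes and 16.9% to 21.2% in workers (adjusted p = 0.210). RNA binding and processing had 7 of 32 (21.9%) and 0 called; pUf68, a splicing factor, averaged 13.96% to 16.5% in gynes and 19.02% to 25.8% in workers (adjusted p = 0.213).

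Against the 16.1% of all genes, the shares of concordantly higher genes in the other lists were as follows, with no test of a list. Of 16 ion channel and neurotransmitter receptor genes 1 was concordantly higher (6.25%), Rdl, a GABA receptor subunit, which averaged 16.4%, 14.97% and 9.23% in gynes, 23.1%, 23.9% and 14.4% in large and 25.8%, 28.8% and 21.6% in small workers over 5 intronic sites (limma, adjusted p = 0.198). Of the 76 sites in that list 2 were concordantly higher and 3 lower, and its median gene difference was 1.23 points. Cytoskeleton and muscle genes had 1 of 17 concordantly higher (5.88%), kinases and phosphatases 8 of 49 (16.3%), transcription factors and zinc fingers 5 of 28 (17.9%) and uncharacterized proteins 18 of 129 (13.95%). Lk6, the kinase that phosphorylates initiation factor eIF4E, averaged 2.48% to 3.60% in gynes and 6.03% to 8.81% in workers (adjusted p = 0.109). The calcium-dependent secretion activator Caps, with 39 tested 3' UTR sites, had a gene mean of 20.4% to 24.98% in gynes and 21.4% to 23.2% in workers, and its concordant sites were 2 higher and 2 lower. Of 6 genes matched to reproduction and juvenile hormone, 2 were concordantly higher and 0 called. These were Pep, an RNA-binding zinc finger protein of ecdysone puffs, with 16.3% to 19.1% in gynes and 17.7% to 28.1% in workers over 20 sites (adjusted p = 0.213), and Eip93F, an ecdysone-induced transcription factor known in the honeybee brain as Mblk-1, with 9.70% to 10.9% and 9.71% to 16.7% over 26 (adjusted p = 0.397). The gene matched to fly jhamt, a methyltransferase of juvenile hormone synthesis, had 1 coding G-to-A site with 1.19% to 6.82% in gynes and 0% to 3.23% in workers (adjusted p = 0.472). No list was tested as a group.

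Sites lower in workers were few. Replicates spread more than the shared dispersion of 1.88 in 12 of the 79 concordantly lower sites. Among all 5720 tested sites, 2249 had such a spread. Sites both called and concordantly lower were 4. They were a site each on scaffolds 40, 344 and 465 outside annotated genes, and 1 in the odorant-binding protein gene Aech_03054. The best measured lay on scaffold 465 (position 352374, plus strand), where gynes read 11.9%, 13.1% and 13.9%, large workers 7.91%, 6.97% and 5.44% and small workers 9.22%, 8.76% and 9.45%, on 281 to 1389 reads. No worker library reached a gyne library, as at 27 of all tested sites (0.472%) on the lower side, and the level fell by 4.99 points (adjusted p = 0.00814, 0.0163 with its own dispersion, and 4.14e-05 relative to the shift). On scaffold 40 (position 12361, minus strand), gynes read 25.9%, 23.5% and 45%, large workers 7.69%, 0% and 0% and small workers 12.2%, 18.2% and 2.99% (adjusted p = 0.0250, 0.291 with its own dispersion). On scaffold 344 (position 394351, minus strand), gynes read 44.4%, 20% and 30.8% and workers 0% to 15.2% (adjusted p = 0.0455, 0.0812 with its own dispersion). A site in a transposable element on scaffold 178 (position 101903, minus strand) was called only relative to the shift. It read 50%, 46.4% and 49.1% in gynes, 40.4%, 38.8% and 41.6% in large workers and 35.03%, 35.9% and 35.9% in small workers, 3 steps without overlap in the order opposite to the general one (adjusted p = 0.112, and 0.00718 relative to the shift).

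Aech_03054 is named after Gp-9, a pheromone-binding protein known in fire ants from a supergene that governs how many queens a colony accepts. Its intronic site (scaffold 159, position 2474287, plus strand) read 2.39%, 2.23% and 5.45% in gynes, 0.714%, 0% and 3.28% in large workers and 0.288%, 1.43% and 1.92% in small workers. The call (adjusted p = 0.0178) was lost with the site's own dispersion (0.532), and the worker range overlapped the gyne range. The number of reads differed more than the level. Gyne libraries had 1339, 1213 and 1285 reads at the site and worker libraries 61 to 347, or an RPM of 2531 ± 264 for gynes, 281 ± 177 for large workers and 419 ± 74.9 for small workers (SD, n = 3 each). The 3 gyne libraries lay far above the 6 worker libraries in this value, which was looked at after the level had singled the site out.

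The transcript of the editing enzyme itself went against the general direction without passing a test. Adar had 5 tested sites in its 5' UTR (scaffold 326, positions 702612 to 702723, plus strand), and their mean was 22.7%, 28.7% and 38.9% in gynes of colonies A, B and C, 20.6%, 24.96% and 24.1% in large workers and 20.8%, 24.1% and 21.4% in small workers. In each colony both workers lay below the gyne, yet gyne A lay within the range of the workers (limma across all genes, adjusted p = 0.340). The site at 702625 was concordantly lower, with 34.8%, 27.03% and 58.8% in gynes and 10.5% to 28.6% in workers (adjusted p = 0.474). At 702620 gynes read 0%, 7.5% and 31.6%, large workers 0%, 0% and 0% and small workers 1.89%, 3.76% and 2.30% (adjusted p = 0.0668). Gyne and worker ranges overlapped at all 5 sites. Workers averaged 2.89 points higher at 702723, and at 702612 and 702714 the sign of the difference turned without gynes of colony C and of colony B, respectively, to 5.76 and 0.972 points. Reads over these sites were more numerous in workers, at 44.1, 61.7 and 43.1 RPM in gynes, 76.8, 50.00 and 77.3 in large workers and 135, 164 and 118 in small workers, averaged over the 5 sites. The 3 small worker libraries were the highest of the 9, while large workers of colony B lay within the gyne range. These positions share reads, and they measure a part of the 5' UTR and not the whole transcript. All 5 lie inside an annotated transposable element, and whether reads of other copies of it were counted was not tested.

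Other genes lower in workers rested on 1 or a few sites. The CG6432 site (3' UTR, scaffold 142, position 1874070, plus strand, G-to-A) read 6.90%, 11.8% and 16.7% in gynes, 2.67%, 0% and 1.82% in large workers and 0% in all 3 small workers. The ranges did not overlap, on 12 to 75 reads per library, and the gene test called it (limma, adjusted p = 0.0361), whereas the site test did not (0.112). Edited reads were few, with 2, 4 and 2 in gynes, 2, 0 and 1 in large workers and 0 in small workers. In the uncharacterized gene Aech_09867, 4 of 21 sites of the 3' UTR were concordantly lower, the most in any gene, and 1 was higher. The 4 lower sites of this gene lay inside transposable elements. At its site with the largest concordant difference (scaffold 177, position 589148, minus strand), gynes read 17.9%, 16.4% and 20%, large workers 5.79%, 14.7% and 5.71% and small workers 8.38%, 6.18% and 9.77% (adjusted p = 0.149). The gene mean was 18.2% to 24.2% in gynes and 16.6% to 22.5% in workers, and reads over the gene were more numerous in workers, with 143 to 184 RPM against 60.9 to 88.7 in gynes. Aech_01796, named after tipE, an auxiliary subunit of sodium channels in the fly, had a concordantly lower coding site with 12.2%, 26.7% and 10% in gynes and 4.32% to 11.1% in workers (scaffold 7, position 3505075, plus strand; adjusted p = 0.253). The other coding site in the class, a G-to-A change in Asph, differed by 1.29 points (adjusted p = 0.775). Of the 11 genes with a concordantly lower mean, the rest were repo, CG5830, Flo-1, futsch, Asph, Aech_00739, Aech_05569 and Aech_10895 besides Aech_03054, with differences from -6.28 to -0.616 points and adjusted p from 0.145 to 0.862.

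Among the 10 largest concordantly lower differences at sites with at least 5% in gynes, 8 lay outside annotated genes, and the others were in Adar and in an intron of Aech_11429. They ranged from -14.8 to -25.1 points, on 10 to 131 reads per library. Only 2 of the 10 were called, 0 with their own dispersion, and in 7 of them a worker library lay within the gyne range. The other 6 called sites that were lower in workers were not concordant. At 3 of them, on scaffolds 35, 178 and 232, gynes of colonies A and B were edited while gyne C and all 6 worker libraries had 0 edited reads; at scaffold 35, position 1929738, a G-to-A site, gynes read 32%, 17.6% and 0% (adjusted p = 0.00613). Cdk9, a kinase of transcription elongation, read 18%, 5.88% and 0% in gynes and 0% to 6.82% in workers at a 3' UTR site (adjusted p = 0.0445). The remaining called sites each had a library against their group, gynes of colony C at 0% on scaffold 298 and small workers of colony B at 73.3% on scaffold 692. The sites on scaffolds 232 (C-to-T) and 298 (T-to-C) were not A-to-G either. Of the 10 sites called lower, 70% were A-to-G, against 89.2% of all tested sites.

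**Figure D5:**
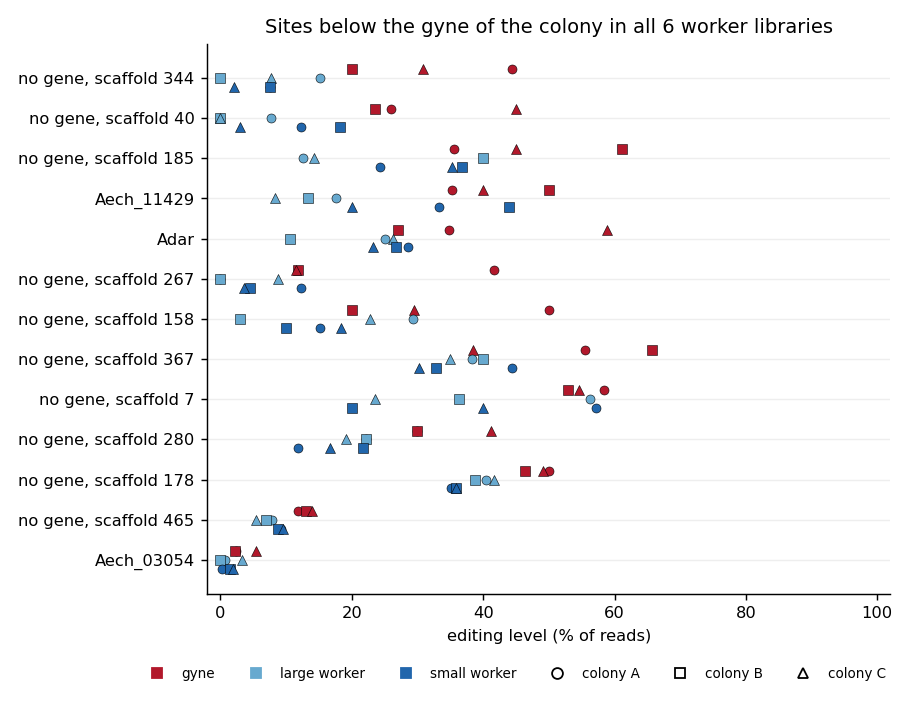
Editing level in percent of reads (horizontal axis) in each of the 9 libraries at concordantly lower sites: the 10 largest differences, and the called sites of either test. Colours give the caste and symbols the colony; gynes (red) lie to the right of the workers of their colony in every row, and the ranges do not overlap on scaffolds 344, 40, 280, 178 and 465.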

How the data were processed

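RNA of 9 pooled head samples and DNA of the 9 matching body samples had been sequenced. The authors deposited 1 table of 17229 editing sites, which gives edited and reference read counts per site and library packed in 1 cell, with annotation on assembly Aech_2.0, per the file headers. BWA 0.5.9-r16 is named in the submitters' processing notes; RNA libraries kept strand by the dUTP method, per the labels' protocols, and filters that define a site are not given in these sources. Each site is marked by the authors in at least 1 RNA library, so levels at low sites depend on that choice.

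Levels were computed as edited over edited plus reference reads, as a percent, from these deposited counts, at 5720 sites with at least 10 reads in all 9 RNA libraries. The number of such reads limits each value: sites had a median of 34 to 85 reads per library. DNA libraries, for which reference reads alone are listed, were not used for levels. Groups come from the labels' caste and replicates from their colony, and both worker castes had equal weight. A quasi-binomial logistic model was fitted to edited and unedited reads at each site, with the dispersion moderated by limma's squeezeVar and kept at 1 or above; moderation gave 1 shared value, 1.88. The F test had Benjamini-Hochberg adjustment over all sites, and adjusted p under 0.05 was called. The relative test took the logit of each library's mean level as offset. Gene levels were tested with limma after an arcsine-square-root transformation; 21 tested sites in 2 overlapping genes were left out there. Scripts were tested on simulated data. Versions were Python 3.11.15, R 4.3.3, limma 3.58.1, pandas 2.3.3, numpy 2.4.6, scipy 1.17.1 and matplotlib 3.10.9.

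Libraries sharing a letter came from 1 colony, which pairs them, per the labels. Over sites, their deviations from the caste means correlated weakly, with r from -0.0225 to 0.0665, against -0.0561 to 0.0416 between colonies. Replicate pairs of a caste had a chi-square of 1.82 to 2.21 per degree of freedom. The p-values of the permutation and gene tests measure the spread between pooled samples of 3 colonies. Those of the main and relative site tests, and of small against large workers, use 1 dispersion shared by all sites. A site's own spread enters with its own dispersion, with the colony block and with limma. Sites were chosen for naming by fixed rules on size of difference, calls and concordance, at most 1 per gene: the 12 largest called increases in genes, up to 8 in each direction called relative to the shift, the 10 largest concordant decreases from at least 5%, up to 4 with no edited gyne read, called genes, the 6 genes with most concordant sites and up to 3 genes per list. The scaffold 614 sites, the second scaffold 21 site, CG5515, skap, Argk, Prx5, coding sites, the other Adar and Aech_09867 sites and the called lower sites that were not concordant were added after their values were seen. The comparison, lists and rules were chosen with earlier results of these data known. Alternatives covered coverage, kind of change, low levels, the authors' marks, dispersion, the colony block, limma and left-out libraries.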

Additional observations from a re-analysis of the deposited data

Results flagged for a closer look

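At 3 of the named sites the small and the large workers themselves differed, by a test of that difference over all 5720 sites, which called 50 (0.874%). In sqd (scaffold 99, position 688856), small workers exceeded large workers by 27.7 points (quasi-binomial test, adjusted p = 0.00998), so that the excess over gynes was larger in small workers. In skap (scaffold 436, position 371401) the difference was 9.02 points (adjusted p = 0.0120), and small workers lay above large workers in all 3 colonies. In Argk (scaffold 7, position 4364760) it was 4.28 points (adjusted p = 1.32e-09), again with the same sign in all 3 colonies. These p-values rest on the dispersion of 1.88 shared by all sites, and the sites' own values were 3.89 at sqd and 4.001 at Argk. With the own value the difference between gynes and workers was not called at either site (adjusted p = 0.304 at sqd and 0.0975 at Argk). Small workers had more heads in a pool and deeper libraries than large workers, and the part of these in the differences was not tested. Samples far from the rest of their group were not searched for, because each caste has 3 libraries.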

How the results depend on the processing

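The mean excess of 2.94 points in workers stayed positive with an exact permutation p under 0.05 at 5 or 20 reads, for A-to-G sites, for sites of at least 5%, for both sets of marked sites, as a median, over summed reads and without any 1 library (2.78 to 3.07). With the colony as a block it was 2.94 points (exact sign-flip p = 0.25, the smallest possible). The 236 called sites became 0 with the block, 0 with limma, 0 with limma and the block, 90 with each site's own dispersion, 30 relative to the shift and 1 to 53 without 1 library, where the moderated dispersion was no longer shared by all sites. The 30 relative calls became 0 with the block, 14 with own dispersion and 0 to 4 without 1 library. The 642 concordantly higher sites became 411 among sites marked in all 9 libraries, 281 relative to the library mean, 335 when no overlap was asked and 1113 to 1273 without 1 colony. The 79 lower ones became 42 at 20 reads, 52 at levels of at least 5%, 32 among sites marked in all 9, 290 relative to the library mean, 27 without overlap and 257 to 286 without 1 colony. The 4 called genes became 60 among genes with at least 3 sites, 0 with the block, 0 at 5 reads, 32 for A-to-G sites, 1 relative to the mean over genes and 0 to 27 without 1 library. Of the 45 named sites that were called, 45 lost the call with the block, 29 to 44 without 1 library and 23 with own dispersion. Reversals were seen at scaffold 397, position 646567, a log odds ratio of -0.130 relative to the shift although workers lay above gynes; at Adar 702612, from -12.9 points without gynes of colony A to 5.76 without those of colony C; and at Adar 702714, from -16.3 points without gynes of colony C to 0.972 without those of colony B. Causes were not tested beyond these constructions. Sites with 10 to 20 reads per library have wide counting error, and the limit for 0 edited reads takes 3 counts.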
